A study of Rattus norvegicus with 50 samples.

Results

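The comparison concerned the kidney medulla of obese ZSF1 rats given enalapril, set against the kidney medulla of obese ZSF1 rats given vehicle. It took 10 of the 50 libraries of the series, 5 with enalapril and 5 with vehicle, chosen by their labels alone. The comparison itself was chosen with earlier results of these data known. The enalapril group received 10 mpk (the labels' unit). Both groups are labelled with 28 weeks as the treatment time and 20 weeks as the age, and which day the age refers to is not stated. Both groups carried the obese ZSF1 genotype and differed by label in the treatment only. Lean ZSF1 rats given vehicle (5 medulla libraries), obese rats given the AMPK activator MK-8722 at 1 or 10 mpk (5 each) and the matching cortex libraries gave levels for orientation. Total RNA was sequenced after removal of ribosomal RNA. The labels do not say whether each library is 1 animal or which medulla and cortex libraries came from the same rat, so p-values measure the spread between libraries.

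Enalapril is an inhibitor of angiotensin-converting enzyme, which cuts angiotensin I to angiotensin II and also degrades bradykinin. Angiotensin II constricts renal vessels, raises sodium reabsorption and aldosterone secretion, and restrains renin release from juxtaglomerular cells by negative feedback. The medulla holds the loops of Henle, the collecting ducts and the vasa recta, which together concentrate the urine. The obese ZSF1 rat develops diabetes, hypertension and progressive kidney disease, and inhibitors of this enzyme are a standard comparator in such models.

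The deposited table identifies genes by Ensembl ID, and 0 of its 32545 IDs could be paired with a symbol in the reference tables used here. The IDs below therefore carry no name and no role, no marker of medullary or cortical cells could be read, and the tissue label was not checked against markers. No sequence is shown for the same reason. All levels are FPKM, which divide a gene's fragments by its length and by the library's total. Fold changes are enalapril over obese vehicle on log2(FPKM + 0.5), a scale that understates changes of low genes.

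Many transcripts differed by a small amount, and most of the called ones were lower with enalapril. Of 13555 IDs tested, 901 were lower (6.65%) and 110 higher (0.812%) with enalapril than with obese vehicle, 1011 in all (7.46%; limma, adjusted p under 0.05). Few of these changes were large. Only 22 of the falls and 7 of the rises reached 2-fold, which is 0.214% of the IDs tested. The median log2 fold change was -0.52 among the falls and 0.58 among the rises, beside a median of -0.14 over all IDs tested and a median standard error of 0.124. Of all IDs tested, 74.9% had a value under 0.

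The excess of falls depended on the scaling. Each library was also divided by its median ratio to the geometric mean of the 10 libraries, which set the median log2 fold change to -0.01. On these rescaled values 82 IDs were lower (0.605%) and 66 higher (0.487%), 148 in all (1.09%). The share of falls among the calls was 55.4% after rescaling and 89.1% as deposited. The scales agreed on 82 falls and 59 rises, and 0 IDs were called in opposite directions. A further 7 IDs were called after rescaling alone. The 2-fold calls after rescaling numbered 6 falls and 7 rises, or 0.0959% of the IDs tested.

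**Figure D1:**
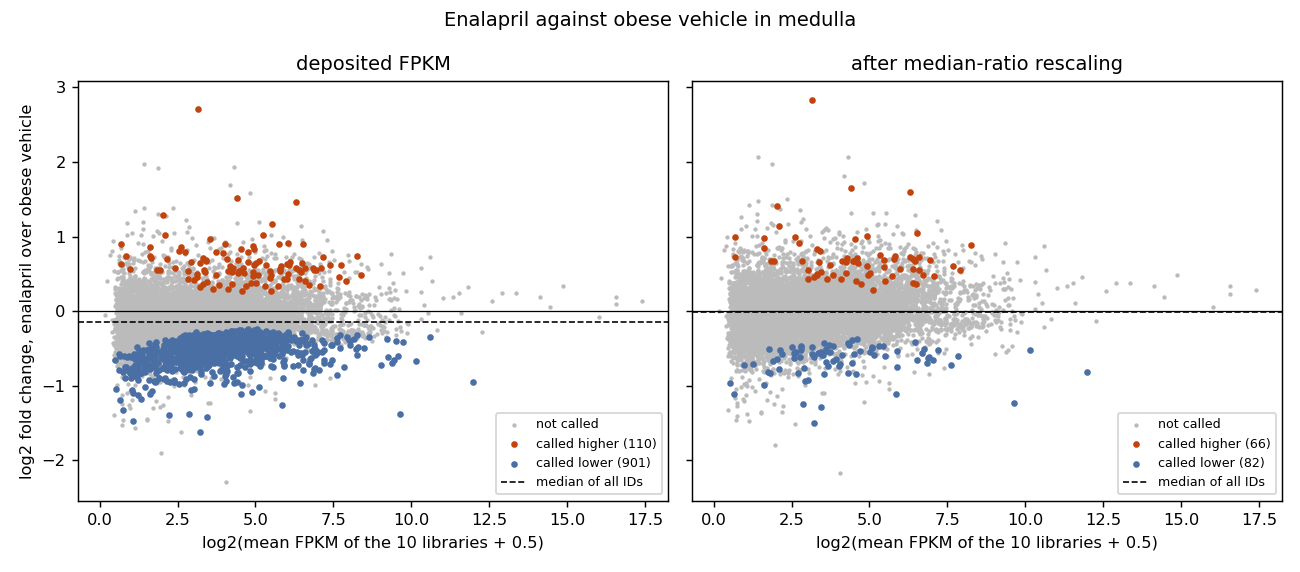
Log2 fold change (enalapril over obese vehicle) of each of the 13555 IDs against log2 of its mean FPKM plus 0.5, for deposited values (left) and after median-ratio rescaling (right). Red points were called higher and blue points lower at adjusted p under 0.05, and the dashed line is the median of all IDs. The 901 falls against 110 rises on the left become 82 against 66 on the right, and 1 rise stands far above the rest at 2.71 as deposited.

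A shift of the typical ID separated the groups, while the summed FPKM of the groups overlapped. That sum was 858158 to 914993 with enalapril and 829243 to 885488 with vehicle. The median-ratio factor, by which a library was divided, was 0.969, 0.974, 0.929, 0.972 and 0.932 in enalapril replicates 2, 3, 5, 6 and 7, against 1.03, 1.06, 1.03, 1.04 and 1.10 in obese vehicle replicates 3, 4, 5, 6 and 7. All enalapril libraries lay under all vehicle libraries. The mean was 0.955 ± 0.0225 with enalapril and 1.05 ± 0.0297 with vehicle (SD, n = 5 each; exact two-sided permutation p = 0.00794, the smallest this design allows, adjusted p = 0.0317 over 4 library measures). The number of IDs with a deposited FPKM of 1 or more was also lower with enalapril, at 13374 ± 141 against 13721 ± 182 with vehicle (exact two-sided permutation p = 0.0159, adjusted p = 0.0317, n = 5 each). Lower typical values put fewer IDs over a fixed FPKM, so this count is not independent of the factor.

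FPKM are shares of a library, so a larger share of a few abundant transcripts lowers all others. The 6 most abundant IDs held 52.7% to 60.2% of the summed FPKM with enalapril and 52.3% to 55.2% with vehicle, and these ranges overlapped. Their means of 56.9% ± 3.07 with enalapril and 54.0% ± 1.22 with vehicle differed by an amount that did not pass the test (SD, n = 5 each; exact two-sided permutation p = 0.0952, adjusted p = 0.127). Relative sequencing depth was 0.767 ± 0.0988 with enalapril and 0.727 ± 0.0816 with vehicle (SD, n = 5 each; exact two-sided permutation p = 0.492). The part of either measure in the shift was not tested. Fewer cells of a type and less RNA per cell cannot be told apart in these whole-tissue libraries.

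**Figure D2:**
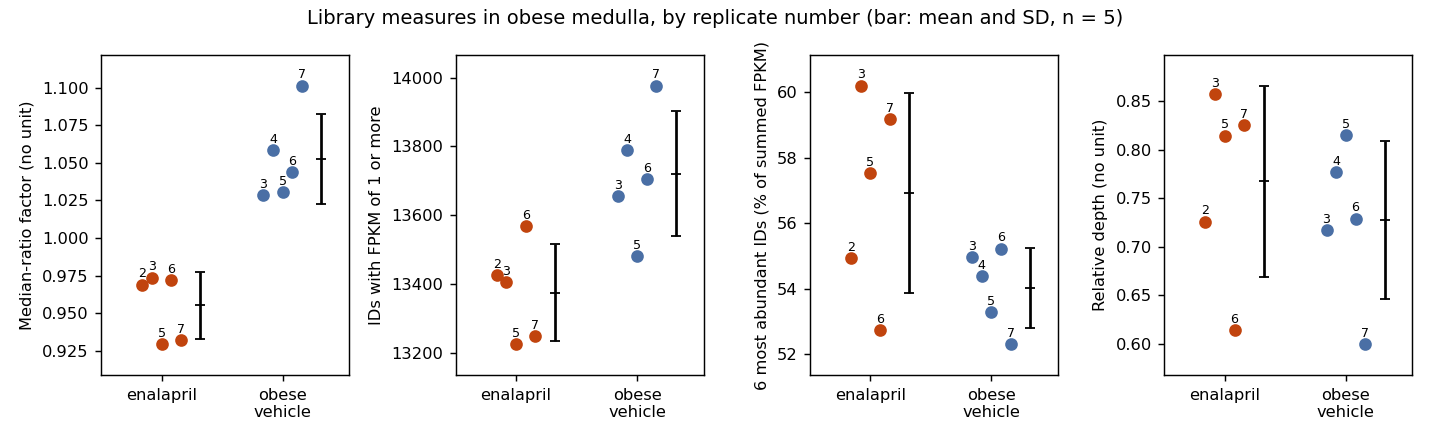
The 4 measures of each library (vertical axes as labelled; points carry the replicate number, bars are the mean and SD of 5 libraries) for enalapril (left, red) and obese vehicle (right, blue). The median-ratio factor separates the groups completely, with enalapril at 0.929 to 0.974 and vehicle at 1.03 to 1.10, while relative depth and the share of the 6 most abundant IDs overlap.

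Calls became more frequent with the level of the gene. Among the 1487 IDs with a mean under 2 FPKM over the 10 libraries, 3.36% were called, 46 lower and 4 higher, and the median standard error was 0.204. Among the 518 IDs at 100 FPKM or more, 13.7% were called, 58 lower and 13 higher, with a median standard error of 0.107. The median deposited log2 fold change was -0.18 in the lowest class and -0.08 in the highest. After rescaling these medians were -0.08 and 0.06, so low transcripts sat slightly under and abundant ones slightly over the middle of the library. Between 20 and 100 FPKM, 31 IDs were higher and 18 lower after rescaling, whereas between 5 and 20 FPKM 21 were higher and 39 lower. At 100 FPKM or more 6 were higher and 12 lower, so the direction of the rescaled calls did not follow the level.

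Every enalapril library was under every vehicle library for 998 IDs (7.36% of those tested) and above every one for 93 (0.686%). After rescaling these counts were 331 (2.44%) and 318 (2.35%), which is close to even.

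The libraries of a group were not alike. On the rescaled values the first principal component held 30.8% of the variance among the 10 libraries. On it, enalapril replicates 2, 3, 5, 6 and 7 lay at -16.4, 1.04, -24.3, -20.9 and -15.4, and obese vehicle replicates 3, 4, 5, 6 and 7 at 3.43, 19.7, -2.40, 17.0 and 38.3. On this component alone, enalapril replicate 3 lay among the vehicle libraries, and obese vehicle replicate 7 stood farthest from the enalapril group. The second component held 17.0% of the variance. There enalapril replicates 3 and 6 lay at -29.6 and 29.3, outside the vehicle range of -7.54 to 11.6. Enalapril replicate 3 differed from the mean of the other enalapril libraries by a median of 0.237 on the log2 scale and from the vehicle mean by 0.197. Each vehicle library differed from the mean of the other vehicle libraries by less, 0.112 to 0.174. Obese vehicle replicate 5 differed from the other vehicle libraries by 0.153 and from the enalapril mean by 0.141. The other 8 libraries were nearer to their own group. The median SD of an ID within its group was 0.202 with enalapril and 0.163 with vehicle (log2, rescaled).

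Single libraries decided how many IDs were called. With enalapril replicate 2, 5 or 7 left out, 238, 3 or 140 IDs were called on deposited values in place of 1011, and with enalapril replicate 3 left out 2721 were. Leaving out obese vehicle replicate 4, 6 or 7 gave 1, 1 or 101, and leaving out obese vehicle replicate 5 gave 1605. With enalapril replicate 6 or obese vehicle replicate 3 left out it was 805 or 806. After rescaling, the count of 148 was 5, 2, 3 or 2 with enalapril replicate 2, 5, 6 or 7 left out and 1635 with enalapril replicate 3 left out. Leaving out obese vehicle replicates 4, 5, 6 and 7 gave rescaled counts of 0, 919, 0 and 4. Where limma called 0 IDs, 2426 and 2470 had an unadjusted p under 0.05, against 3024 with all 10 libraries rescaled. On deposited values this number was 4107 with all 10 libraries. It was 3123 without enalapril replicate 5, and 3327 and 3422 without obese vehicle replicates 4 and 6. Each such fit also had fewer libraries. The sign held whichever library was left out for 1003 of the 1011 deposited calls and 144 of the 148 rescaled ones, which their selection as calls already favours.

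**Figure D3:**
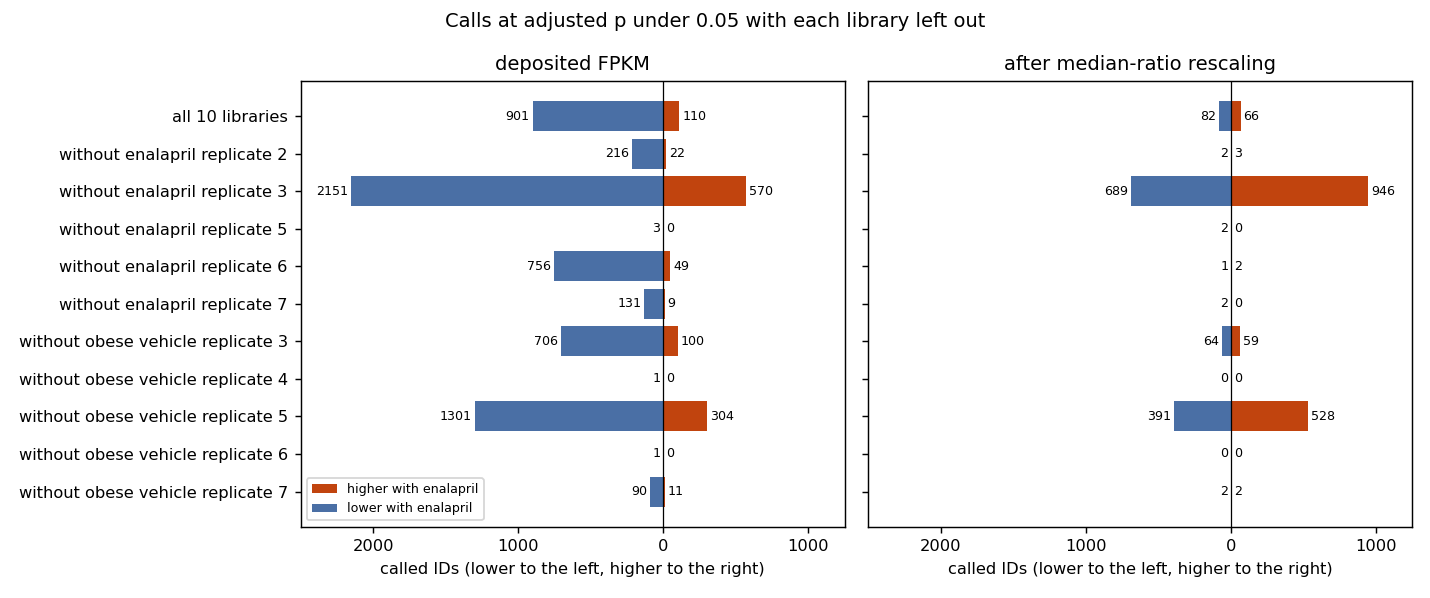
Number of IDs called at adjusted p under 0.05 (horizontal axis; falls to the left, rises to the right) with all 10 libraries and with each library left out, for deposited values (left) and after rescaling (right). Without enalapril replicate 3 the counts grow to 2151 falls and 570 rises as deposited, while without enalapril replicate 5 they shrink to 3 falls and 0 rises.

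A stricter rule described the IDs that were called in the same direction on both scales, had at least 2 FPKM in the higher group and showed no overlap of the deposited values between the groups. It held for 118 IDs (0.871% of those tested), 78 lower and 40 higher with enalapril. Because the rule asks for separate groups, it fixes their direction. Among the 78 falls the log2 fold change ran from -1.62 to -0.52 with a median of -0.73, and 8 reached 2-fold. Their mean levels lay between 1.26 and 2703 FPKM with enalapril and between 2.57 and 5319 FPKM with vehicle. Among the 40 rises it ran from 0.26 to 2.71 with a median of 0.54, and 5 reached 2-fold. Their mean levels lay between 3.28 and 377 FPKM with enalapril and between 1.64 and 228 FPKM with vehicle. The medians after rescaling were -0.59 and 0.67. With any library left out, the deposited median ran from -0.78 to -0.67 for the falls and from 0.47 to 0.58 for the rises, a range that the choice of the IDs on these same libraries keeps narrow. Of the 78 falls and 40 rises, 2 and 0 were still called without enalapril replicate 5, 1 and 0 without obese vehicle replicate 4, and 1 and 0 without obese vehicle replicate 6 (deposited values). The rises still called numbered 18 and 7 without enalapril replicates 2 and 7, and 9 without obese vehicle replicate 7. After rescaling at most 2 falls and 3 rises were still called when any of enalapril replicates 2, 5, 6 and 7 or any of obese vehicle replicates 4, 6 and 7 was left out.

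The largest rise among the 118 IDs was ENSRNOG00000002937. It had 12.0, 4.74, 16.6, 25.1 and 16.9 FPKM in enalapril replicates 2, 3, 5, 6 and 7, against 1.64, 1.60, 1.37, 2.61 and 1.09 FPKM in obese vehicle replicates 3, 4, 5, 6 and 7. The lowest enalapril library, replicate 3, was still above the highest vehicle library. The means were 15.1 ± 7.45 FPKM with enalapril and 1.66 ± 0.571 FPKM with vehicle (SD, n = 5 each), a ratio of 9.06. The log2 fold change was 2.71 ± 0.364 (SE, limma, adjusted p = 0.0164) and 2.83 after rescaling (adjusted p = 0.0261). With any library left out the log2 fold change stayed between 2.49 and 3.06. The call was missed without enalapril replicate 5 (adjusted p = 0.057) and without obese vehicle replicates 4 and 6 (0.0504 and 0.0506) on deposited values. After rescaling it was kept in 3 of 10 such fits, those without enalapril replicate 3 and without obese vehicle replicate 3 or 5, and the adjusted p reached 0.108.

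The other medulla groups had means near that of obese vehicle for this ID, with no test made. Lean vehicle medulla had 1.27 ± 0.369 FPKM, MK-8722 at 1 mpk 1.08 ± 0.308 FPKM and MK-8722 at 10 mpk 1.91 ± 2.39 FPKM (SD, n = 5 each). The highest of these 15 libraries had 5.55 FPKM, at 10 mpk, which is above enalapril replicate 3 and under the other enalapril libraries. The libraries at 10 mpk lay on both sides of the obese vehicle range of 1.09 to 2.61 FPKM. Replicates 1, 2, 3, 5 and 6 of that group had 3.16, 0.17, 0.26, 5.55 and 0.39 FPKM.

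ENSRNOG00000015518 was the next largest rise of the 118. It had 32.8, 19.8, 36.9, 34.2 and 30.4 FPKM in enalapril replicates 2, 3, 5, 6 and 7, against 15.4, 10.9, 15.9, 8.37 and 4.90 FPKM in obese vehicle replicates 3, 4, 5, 6 and 7. The groups did not overlap, and enalapril replicate 3 was again the lowest of its group. The means were 30.8 ± 6.62 FPKM with enalapril and 11.1 ± 4.69 FPKM with vehicle (SD, n = 5 each), and the log2 fold change was 1.51 ± 0.297 (SE, limma, adjusted p = 0.0265), or 1.65 after rescaling (adjusted p = 0.0415). In lean vehicle medulla the level was 48.3 ± 8.81 FPKM, with the lowest lean library at 39.6 FPKM, above the highest enalapril library. MK-8722 gave 9.17 ± 3.65 FPKM at 1 mpk and 14.8 ± 5.71 FPKM at 10 mpk (SD, n = 5 each). The call was missed without enalapril replicates 2, 5 and 7 (adjusted p = 0.0538, 0.0774 and 0.0581) and without obese vehicle replicates 4 and 6 (0.0644 and 0.0719), at log2 fold changes of 1.27 to 1.67 over all deposited fits that left out a library. The rescaled call was kept in 3 of 10 fits, again without enalapril replicate 3 and without obese vehicle replicate 3 or 5, with an adjusted p of up to 0.122.

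The largest fall among the 118 IDs was that of ENSRNOG00000014714. It had 3.87, 7.24, 3.05, 2.68 and 3.45 FPKM in enalapril replicates 2, 3, 5, 6 and 7, against 8.55, 14.2, 8.51, 14.97 and 21.9 FPKM in obese vehicle replicates 3, 4, 5, 6 and 7. Enalapril replicate 3 was the highest of its group and closest to vehicle, and obese vehicle replicate 7 was the highest of all. The means were 4.06 ± 1.83 FPKM with enalapril and 13.6 ± 5.55 FPKM with vehicle (SD, n = 5 each), with a log2 fold change of -1.62 ± 0.292 (SE, limma, adjusted p = 0.0228), or -1.49 after rescaling (adjusted p = 0.0415). Lean vehicle medulla had 0.065 ± 0.039 FPKM, far under every enalapril library. MK-8722 gave 14.1 ± 3.10 FPKM at 1 mpk and 6.59 ± 4.32 FPKM at 10 mpk (SD, n = 5 each). The call was missed without enalapril replicates 5 and 7 (adjusted p = 0.0731 and 0.051) and without obese vehicle replicates 4 and 6 (0.0626 and 0.0694) on deposited values. The rescaled call was missed in all fits but those leaving out enalapril replicate 3, obese vehicle replicate 3 or obese vehicle replicate 5, with an adjusted p of up to 0.122.

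ENSRNOG00000007092, the next largest fall, had the smallest standard error of the 4 IDs. It had 3.87, 5.78, 5.26, 5.80 and 6.20 FPKM in enalapril replicates 2, 3, 5, 6 and 7, against 11.5, 15.1, 12.6, 15.1 and 23.3 FPKM in obese vehicle replicates 3, 4, 5, 6 and 7. The highest enalapril library was well under the lowest vehicle library, and here enalapril replicate 3 lay in the middle of its group. The means were 5.38 ± 0.907 FPKM with enalapril and 15.5 ± 4.64 FPKM with vehicle (SD, n = 5 each), a level 2.89-fold lower with enalapril. The log2 fold change was -1.42 ± 0.173 (SE, limma, adjusted p = 0.012), or -1.29 after rescaling (adjusted p = 0.0226). It missed the threshold without obese vehicle replicates 4 and 6 (adjusted p = 0.0504 and 0.0506) on deposited values. After rescaling it missed it without enalapril replicates 5 and 6 (adjusted p = 0.0737 and 0.053) and without obese vehicle replicates 4 and 6 (0.071 and 0.0566). Lean vehicle medulla had 0.403 ± 0.194 FPKM, MK-8722 at 1 mpk 15.3 ± 3.92 FPKM and MK-8722 at 10 mpk 7.69 ± 2.73 FPKM (SD, n = 5 each).

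**Figure D4:**
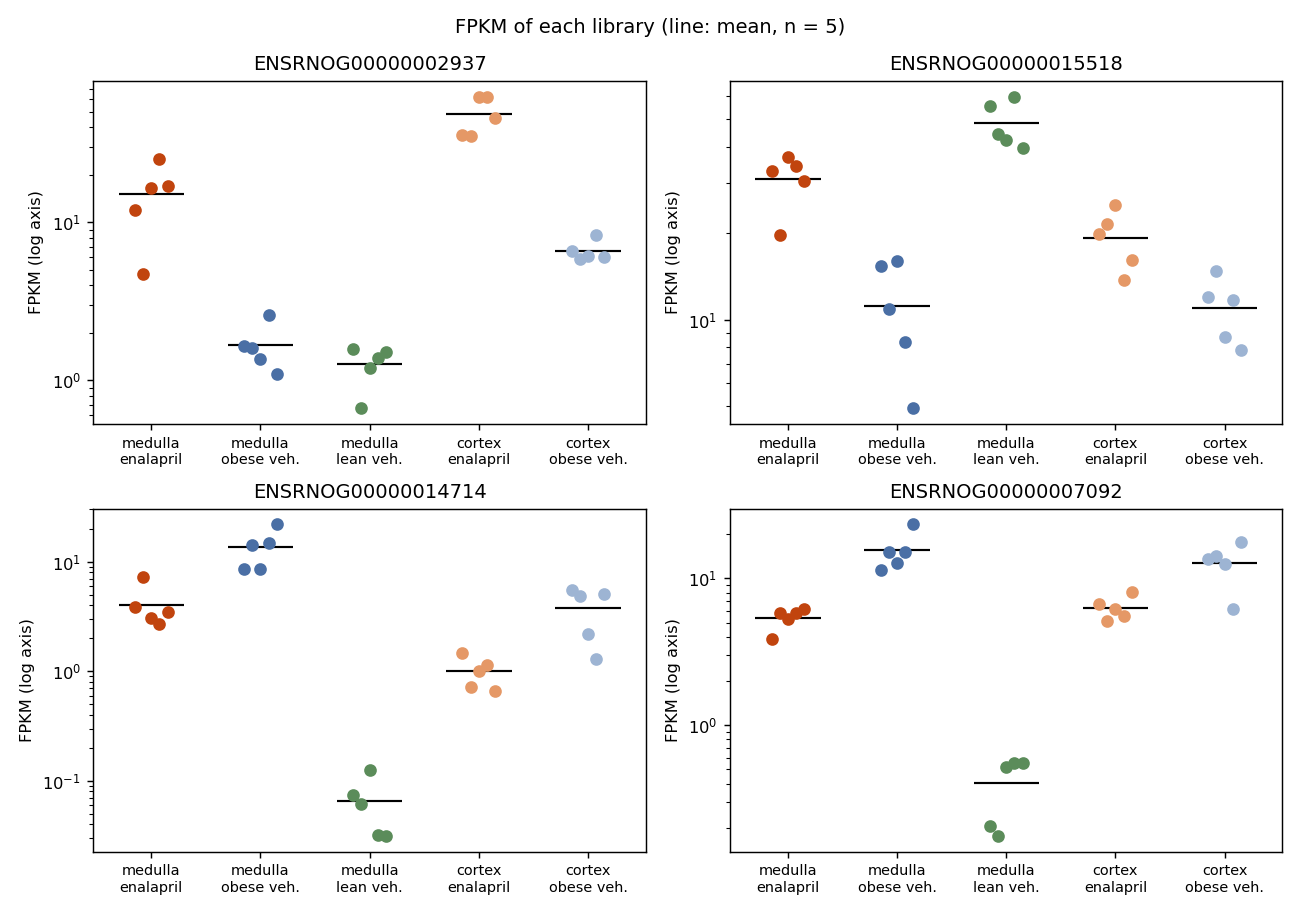
FPKM (log axis) of the named IDs in each library of 5 groups, with lines at the group means (n = 5). In medulla the enalapril and obese vehicle libraries are separate in all 4 panels, and for ENSRNOG00000014714 and ENSRNOG00000007092 the lean libraries, with means of 0.065 and 0.403 FPKM, lie far under both.

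Beside the enalapril libraries, the lean level lay on the far side for nearly all of the falls of the stricter rule and for part of its rises. For 76 of the 78 falls every lean vehicle library was under every enalapril library, beside 28.0% of all IDs tested. After rescaling over the 15 libraries this held for 74, beside 15.01% of all IDs. The falls with enalapril thus ended above the lean level in nearly every case. Among the 40 rises, every lean library was above every enalapril library for 13 IDs and under every one for 7, beside 4.91% and 28.0% of all IDs as deposited. After rescaling these were 21 and 4, beside 11.8% and 15.01%. The enalapril libraries also took part in choosing these IDs, so these counts are a description.

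The cortex of obese rats gave the same drug comparison in other libraries, and most of the 118 IDs had the same sign there. On deposited values 71 of the 78 falls (91.0%) were also called lower in cortex, where 14.5% of 13950 IDs were, and 8 of the 40 rises (20.0%) were called higher, where 0.33% were (limma, fit of the 20 libraries of both tissues). After rescaling 44 falls (56.4%) and 9 rises (22.5%) were called in cortex, beside 1.81% and 0.495% of all IDs (2.31% in both directions). The spread in that fit also came from the medulla libraries on which these IDs were chosen, which can favour their calls in cortex. By the deposited cortex values alone, the cortex groups did not overlap for 18 falls, beside 4.95% of all IDs, and for 4 rises, beside 0.337%. After rescaling these were 18 falls, beside 1.86%, and 9 rises, beside 1.56%. Without regard to the calls, 78 falls were lower and 35 rises higher in cortex as deposited, and 78 and 40 after rescaling, where 82.7% of all IDs were lower as deposited and 48.7% after rescaling. Log2 fold changes of the tissues correlated across the 13950 IDs with Pearson r of 0.549 as deposited and 0.553 after rescaling; IDs are not independent replicates, and the animals may be shared.

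The counts of cortex calls also rested on single libraries. The deposited count of 71 falls became 41, 30 and 41 without cortex obese vehicle replicates 1, 2 and 6, and the 8 rises became 3 without each of them. The count of 8 rises was 5, 4, 5 and 4 without cortex enalapril replicates 2, 4, 6 and 7, and 15 without cortex obese vehicle replicate 5. After rescaling the 44 falls became 12, 4, 16 and 11 without cortex enalapril replicates 2, 4, 6 and 7, 3 without obese vehicle replicate 1, 2 or 6, and 70 without replicate 5. The 9 rescaled rises became 4, 1, 5 and 5 without those enalapril replicates, 1 without obese vehicle replicate 1, 2 or 6, and 27 without replicate 5. The median cortex log2 fold change of the falls lay between -0.89 and -0.66 as deposited and between -0.66 and -0.49 after rescaling. For the rises it was 0.24 as deposited, beside 0.54 in the medulla libraries on which they were chosen, and was lowest, at 0.18, without replicate 6 of the cortex vehicle group and highest, at 0.28, without its replicate 5. After rescaling it was 0.44, beside 0.67 in medulla, and lay between 0.37 and 0.53.

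**Figure D5:**
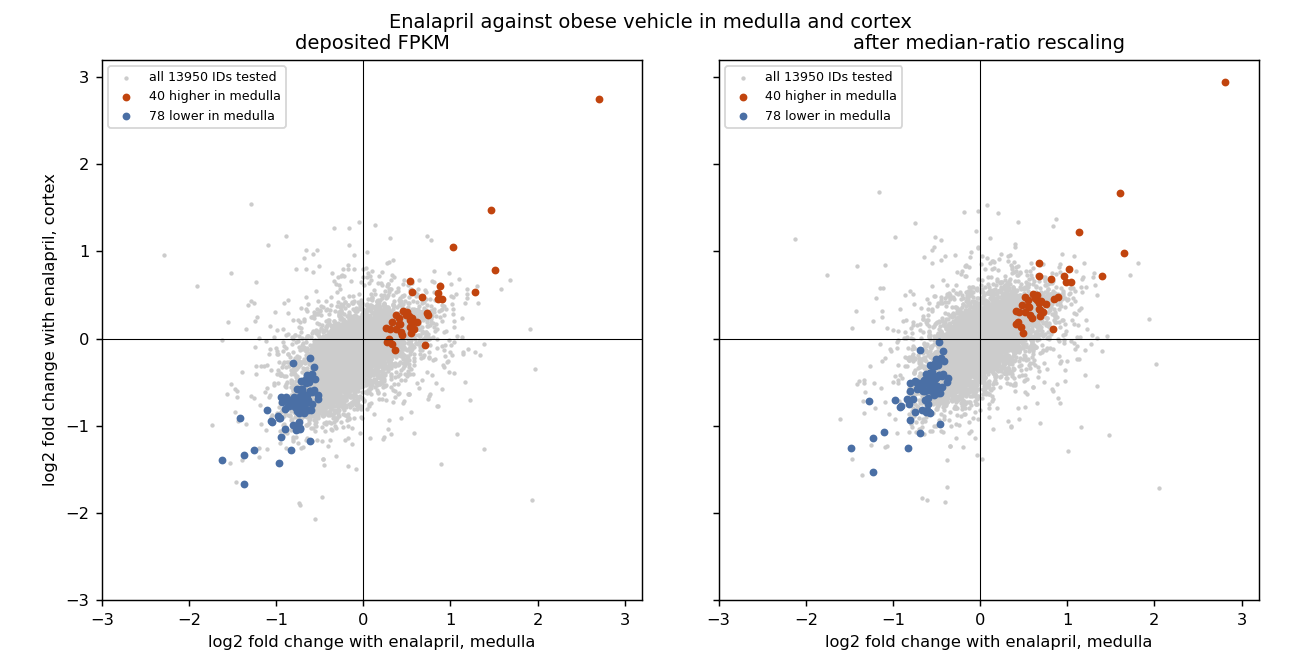
Log2 fold change with enalapril in cortex (vertical axis) against medulla (horizontal axis) for 13950 IDs in grey, as deposited (left) and after rescaling (right). Red and blue points are the 40 rises and 78 falls of the stricter rule in medulla; the blue points lie under 0 in cortex in both panels, and ENSRNOG00000002937 stands alone at the upper right, at 2.71 in medulla and 2.75 in cortex as deposited.

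No ID showed a response in medulla that differed from cortex past the threshold. The interaction of tissue with treatment was called for 0 of 13950 IDs (0%) on deposited values and for 0 after rescaling (limma, adjusted p under 0.05). At an unadjusted p under 0.05 there were 637 IDs as deposited, which is 4.57%, and 610 after rescaling. The median standard error of the difference between tissues was 0.18 on the log2 scale, so differences of a size near that of most changes above were not detectable.

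For the IDs named above the tissues can be set side by side, with cortex p-values from the same fit of the 20 libraries of both tissues. ENSRNOG00000002937 had 35.1 to 62.5 FPKM in cortex enalapril libraries and 5.88 to 8.36 FPKM in cortex obese vehicle libraries. Its level was higher in cortex than in medulla in both groups, and its log2 fold change of 2.75 ± 0.308 in cortex (SE, limma, adjusted p = 0.000608) differed from that in medulla by -0.04 ± 0.436 (SE, interaction adjusted p = 0.998). ENSRNOG00000015518 had a cortex log2 fold change of 0.78 ± 0.265 (SE, limma, adjusted p = 0.053), which missed the threshold, and the medulla value was higher by 0.73 ± 0.375 (interaction adjusted p = 0.998). ENSRNOG00000014714 fell in cortex as well, to 0.999 ± 0.334 FPKM with enalapril against 3.78 ± 1.89 FPKM with vehicle (SD, n = 5 each; log2 fold change -1.40, limma, adjusted p = 0.0159). Its cortex groups overlapped, with enalapril up to 1.47 FPKM and vehicle down to 1.31 FPKM. ENSRNOG00000007092 had 6.33 ± 1.14 FPKM with enalapril and 12.8 ± 4.18 FPKM with vehicle in cortex (SD, n = 5 each). Its log2 fold change there was -0.91 (limma, adjusted p = 0.0165), and -0.72 after rescaling, which missed the threshold (adjusted p = 0.0517). These cortex groups overlapped too, with enalapril up to 8.06 FPKM and vehicle down to 6.20 FPKM. The medulla value minus the cortex value was -0.23 ± 0.466 for ENSRNOG00000014714 and -0.51 ± 0.307 for ENSRNOG00000007092 (SE, deposited; limma, interaction adjusted p = 0.998 for each).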

How the data were processed

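The authors deposited FPKM values for 32545 Ensembl gene IDs in 50 libraries. Per the labels' protocols, libraries came from 1 µg of total RNA with a stranded kit that removes ribosomal RNA. No source used here names the aligner, counting tool, genome build or annotation. Columns were matched to samples by library number.

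Tests used limma 3.58.1 in R 4.3.3 (mean-variance trend, robust moderation, two-sided, Benjamini-Hochberg over all IDs tested) on log2(FPKM + 0.5). IDs were tested where 5 or more of the 10 libraries (of 20 for the interaction and the cortex) reached 1 FPKM. No covariate was used. For rescaling, the median ratio was taken over IDs with 1 FPKM or more in all libraries of the fit. Library measures were compared with exact permutation tests. The limma fits of deposited values were tested on simulated data with independent noise and no shift shared within a library. The rescaling was checked on a library multiplied by a known factor. The other procedures were not simulated.

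Absolute depth is unknown. Relative depth came from the most frequent ratio of values between each pair of libraries, over 5125 IDs detected in 5 to 22 libraries. After scaling by it, 89.6% of 61293 values lay within 0.1 of a whole multiple of the smallest value of their ID. That smallest value is a whole multiple by construction.

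Named IDs are the 2 largest rises and falls that met the stricter rule given in the text; that rule asked for a gene symbol, a condition dropped because the IDs could not be paired with names. The fixed lists of pathway and cell type genes could not be read for the same reason. The comparison, the rule and the lists were chosen with earlier results of these data known. No libraries were identical.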

Additional observations from a re-analysis of the deposited data

Results flagged for a closer look

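Dixon's gap test for 5 samples (critical value 0.71) was applied to 48 groups of values, the 4 named IDs in all 10 groups and the library measures of enalapril and obese vehicle medulla. It flagged 3, where chance flags about 1 in 20. ENSRNOG00000014714 stood apart at 7.24 FPKM in medulla enalapril replicate 3, while the other enalapril libraries had at most 3.87 FPKM. ENSRNOG00000015518 stood apart at 15.6 FPKM in medulla MK-8722 1 mpk replicate 2. ENSRNOG00000002937 stood apart at 8.36 FPKM in cortex obese vehicle replicate 5.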

How the results depend on the processing

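The counts of calls depended on the processing, and the cause was not tested. The deposited count of 1011 became 148 after rescaling, 141 without the filter on low values (25001 IDs tested), 1518 with the 25 medulla libraries fitted and 3 with the replicate number as a block. A pseudocount of 0.1, relative depth as a term and limma without robust moderation kept it within 1.5 times. The rescaled count of 148 became 6 without the filter, 635 with the 25 libraries fitted, 1 with the replicate number as a block and 6 with relative depth as a term; a pseudocount of 0.1 and upper-quartile scaling kept it within 1.5 times. Without enalapril replicate 5 and obese vehicle replicate 7 together, an alternative chosen after seeing the data, 2 IDs were called as deposited and 0 after rescaling (limma; 1626 had an unadjusted p under 0.05 after rescaling). Leaving out 1 library gave 1 to 2721 deposited and 0 to 1635 rescaled calls, and 0 interaction calls in every case. The interaction stayed at 0 calls in the other alternatives. Its block took the replicate number within each tissue, so no fit paired medulla libraries with cortex libraries.

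Whether the replicate numbers pair the libraries could not be told from 4 same-numbered pairs. Of these pairs 1 deviated together with r over 0.1 (range -0.13 to 0.19), and 3 of the 4 enalapril libraries correlated best with their own number. With the block, ENSRNOG00000007092 was still called (adjusted p = 0.0465), and the other named IDs were not. Of 32 fits of the named IDs in alternatives other than leaving out 1 library, 26 kept the call and 0 changed sign. The precision of low IDs is limited by depth, which is known only between libraries.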
